A study of Schizosaccharomyces pombe with 49 samples.

Results

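The genes described here encode subunits of the fission yeast 26S proteasome. They were chosen by their symbols, namely those that begin with rpn, rpt, pre, pup or pts and go on with digits only, and that are listed in every count table. The rule found 31 genes of 7015 features. Of these, 6 encode the ATPase ring of the regulatory particle, 4 encode other subunits of its base, 9 its lid, 6 the alpha ring of the core particle and 6 its beta ring. Proteasome subunits with symbols of another form lie outside the rule, namely mts4 (Rpn1), scl1 (alpha 1), pam1 (beta 6) and dss1. RNA from Schizosaccharomyces pombe was sequenced in 49 libraries, of which 46 have gene counts. A set of 8 came from homothallic h90 cells, which can mate and sporulate among themselves, grown at 30 °C in YEA, a rich medium: tor2-ts6 cells lacking ubi4, cul4 or ddb1, each with pir1 present and with pir1 deleted, tor2-ts6 cells, and wild-type cells. All but the wild type of this set carry tor2-ts6, a temperature-sensitive allele of the TORC1 kinase Tor2. A course of 31 libraries followed pat1-as2 diploids at 26 °C, in red1Δ (10 libraries), pir1Δ (10) and wild type (11). These diploids were sampled while growing in YEA, after 4 h without nitrogen, and at each hour from 1 to 8 h after 25 µM 1-NM-PP1 was added to inhibit the analog-sensitive Pat1 kinase, which starts meiosis in all of them. The other counted libraries were wild-type h90 cells with GFP-Pir1-SD, GFP-Pir1-SA or GFP-Pir1 in EMM at 18 °C and GFP-Pir1 in YEA at 30 °C, and mat1Msmt0 cells at 29 °C, namely pir1Δ in YEA and in EMM and wild type in EMM. For mat1Msmt0 cells in YEA at 30 °C, tor2-ts6 and pir1Δ are known only from the authors' deposited comparisons, and the wild type was not analysed here. Only the vegetative wild-type diploids have 2 libraries, every other group has 1, and no label says that libraries came from separate cultures. The p-values thus measure what the fitted terms leave between libraries that differ in hour, strain or pir1 state. They do not measure a spread between replicate cultures.

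The proteasome degrades proteins tagged with ubiquitin. Its regulatory particle binds ubiquitin through receptors such as Rpn10 and Rpn13, the lid enzyme Rpn11 removes the ubiquitin chain, and the Rpt ATPases unfold the protein and thread it through the alpha ring into the core, where beta subunits cut it. In fission yeast the proteasome acts in the exit from mitosis and from the meiotic divisions, when cyclin and securin are destroyed. Ubi4 is the polyubiquitin that supplies ubiquitin under stress, and Cul4 with Ddb1 forms a ubiquitin ligase. Pir1 (gene iss10) and Red1 belong to the machinery that sends meiotic transcripts to the nuclear exosome in growing cells.

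Since the members moved together, the letters before their starts were compared. The windows ran from 250 bases before to 50 bases after each annotated start in the RefSeq assembly ASM294v3, and all 31 members and 5123 protein-coding genes had one. The element GGTGGCAAA, through which Rpn4 drives proteasome genes in Saccharomyces cerevisiae, was in 0 of 31 member windows on either strand, and in 0.0976% of all windows. All words of 8 bases were then counted on both strands. The word with the largest difference in share, AATATAAA, was in 10 members (32.3%) and in 9.35% of all windows. Of the 10 words with the largest difference, the one with the largest ratio was GTCAGCAA (TTGCTGAC on the other strand), in 5 members (16.1%) and in 1.52% of all windows. These words were picked for their shares among the members, so the shares are a description. The stretches that hold GTCAGCAA are shown because 2 of the 5 belong to the near-identical pair rpn501 and rpn502. The word is in capitals, and each stretch is read along its gene.
pre10: tctacgctccTTGCTGACtagtcatcag
pup2: gttttggtcaGTCAGCAActactacttt
pup3: tgcttcttttGTCAGCAAgaacctttcc
rpn501: tagtgtactaTTGCTGACaactaaagta
rpn502: tagagtagtaTTGCTGACaactaaagta
They lie at III:990652-990679 (plus strand), I:3910390-3910417 (minus), III:860419-860446 (minus), I:1266148-1266175 (plus) and I:4910969-4910996 (minus), in that order. In rpn501 and rpn502 the word begins 111 bases before the start, whereas in pup2 it begins 3 bases before the start and runs across it.

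Both rpn501 and rpn502 encode the lid scaffold subunit Rpn5. Their coding sequences, 1332 bases each, were 99.85% identical, with a longest identical run of 977 bases. They differ by T978C and T1131C, where the base of rpn501 comes first and positions are counted from the start codon. The stretches round these bases are shown because reads from elsewhere in the coding sequence cannot be assigned to 1 of the 2 genes, so counts of both are uncertain.
rpn501 at 978: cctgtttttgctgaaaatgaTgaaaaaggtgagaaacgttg
rpn502 at 978: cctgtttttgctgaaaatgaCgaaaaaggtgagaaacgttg
rpn501 at 1131: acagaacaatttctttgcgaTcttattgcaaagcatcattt
rpn502 at 1131: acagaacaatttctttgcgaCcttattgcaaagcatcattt
The capitals mark the base that differs. The pair rpn1301 and rpn1302, both encoding the ubiquitin receptor Rpn13, was 47.03% identical in coding sequence, with a longest identical run of 14 bases, so their reads can be told apart.

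Gene reads per library numbered 10.2 to 14.3 × 1e6 in the h90 set and 13.8 to 56.5 × 1e6 in the course. The deletions were checked first. The ubi4 gene stood at 48.42 and 41.11 CPM (counts per 1e6 gene reads after TMM scaling) in the ubi4Δ libraries, against 226 to 375 CPM in the other h90 libraries, and ddb1 stood at 7.67 and 8.03 CPM in the ddb1Δ libraries. The cul4 gene had 14 and 39 reads in the cul4Δ libraries in the column without strand, but 942 and 926 reads in the stranded column used for this set, which does not show the deletion. The iss10 gene, which encodes Pir1, stood at 3.16 CPM in ubi4Δ pir1Δ and 5.70 CPM in ddb1Δ pir1Δ, but at 15.73 CPM (210 reads) in cul4Δ pir1Δ. With pir1 present it stood at 66.23 CPM in ubi4Δ, 65.12 in ddb1Δ and 54.18 in cul4Δ. In the course, counts without strand were used, and reads shared with a feature on the other strand are then dropped. Reads from the opposite strand that fall on 1 gene only are counted to it. Opposite-strand reads made up 34.6% of the reads of both strands in rpn6 and 17.8% in pre8 there. An annotated feature on the other strand overlaps 28 of the 31 members, and a protein-coding one overlaps 11. The ATPase gene rpt5, covered wholly by a noncoding RNA on the other strand, has 0 reads there, so 30 members were tested in the course. The receptor gene rpn10 kept 11 to 14.1% of its stranded reads in 11 course libraries, namely all of pir1Δ and wild-type vegetative library 2, and 40.7 to 45.7% in the other 20. The libraries of the course thus fall into 2 kinds, and apart from that vegetative library the kind cannot be told apart from the pir1 deletion. The ATPase gene rpt6 stood at 4.36 to 7.85 CPM in the h90 set and at 105.83 to 444.15 CPM in the course, so its haploid levels are uncertain. As a check of the stages, mei2, the RNA-binding protein that starts meiosis, stood at 1922.20 to 2645.21 CPM in the 3 starved libraries and at 55.28 to 177.09 CPM in the 4 vegetative ones, and spo5, a regulator of the meiotic divisions, had a median of 3711.64 CPM at hours 1 to 3 and of 16.18 CPM in vegetative cells.

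In wild-type h90 cells most members stood within a narrow range of levels per length, and the paralogs stood below it. The alpha 6 gene pre5 had the highest level, 398.1 CPM per kb, followed by pre3 (beta 1, a catalytic subunit) at 333.7 and pre6 (alpha 4) at 307.1 CPM per kb. Median levels by role were 270.4 CPM per kb for the alpha ring, 251.4 for the ATPases, 241.8 for the beta ring, 214.5 for the lid and 162.1 for the rest of the base. The paralogs rpn1302 (112.9), rpn1301 (79.1), rpn502 (52.9) and rpn501 (29.5 CPM per kb) were the lowest apart from rpt6. Reads from the coding sequence that rpn501 and rpn502 share cannot be assigned to 1 of them, so the levels of this pair are uncertain. With 1 wild-type library, the order of neighbouring levels has no replicate check.

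All 31 members were lower in tor2-ts6 than in wild-type h90 cells, with a median log2 ratio of -0.67 and a range of -1.05 to -0.15. The largest differences were in rpn10, with 109.54 CPM in tor2-ts6 and 227.19 CPM in wild type, and in the ATPase gene rpt1, with 191.05 CPM in tor2-ts6 and 390.79 CPM in wild type. The smallest was in pup1 (beta 2, catalytic), with 241.81 CPM in tor2-ts6 and 267.83 CPM in wild type. The genes rpn10 and rpt1 were the 2 members at a log2 ratio of -1 or less, against 15.7% of genes. The 2 groups have 1 library each, so there is no replicate check and no p. In bulk RNA, fewer cells with a transcript and less of it per cell cannot be told apart. By role the median was -0.87 in the lid, -0.77 in the alpha ring, -0.61 in the beta ring, -0.55 in the ATPases and -0.45 in the rest of the base. Over all genes the median was -0.06 (5642 genes), and 52.55% were at or below 0. With scaling by total counts the members had a median of -0.23, with 5 above 0, and the genes one of 0.38, so the members stood below the genes' median under both scalings. The 4 subunits outside the rule had a median of -0.77. Other lists moved further, with medians of -2.30 for 139 ribosomal protein genes, -1.18 for the 8 genes of the CCT chaperonin, which folds actin and tubulin, and 1.04 for 28 autophagy genes. Markers of mating and meiosis were far higher in the same library, and their part in the members' difference was not tested: mei2 stood at 2697.39 CPM in tor2-ts6 and 14.12 CPM in wild type, and ste11, which drives sexual differentiation, at 1091.29 CPM in tor2-ts6 and 36.79 CPM in wild type.

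In the authors' deposited table for mat1Msmt0 cells, tor2-ts6 members had a median log2 fold change of -0.13, with 10 of 31 above 0, against a median of 0.25 over all genes. Within that table rpt1 was again among the low ones (-0.70), whereas pup1 (0.77) and the lid gene rpn7 (0.68) stood above 0. The table gives 6.41 for rpt6, the gene with uncertain haploid levels.

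**Figure D1:**
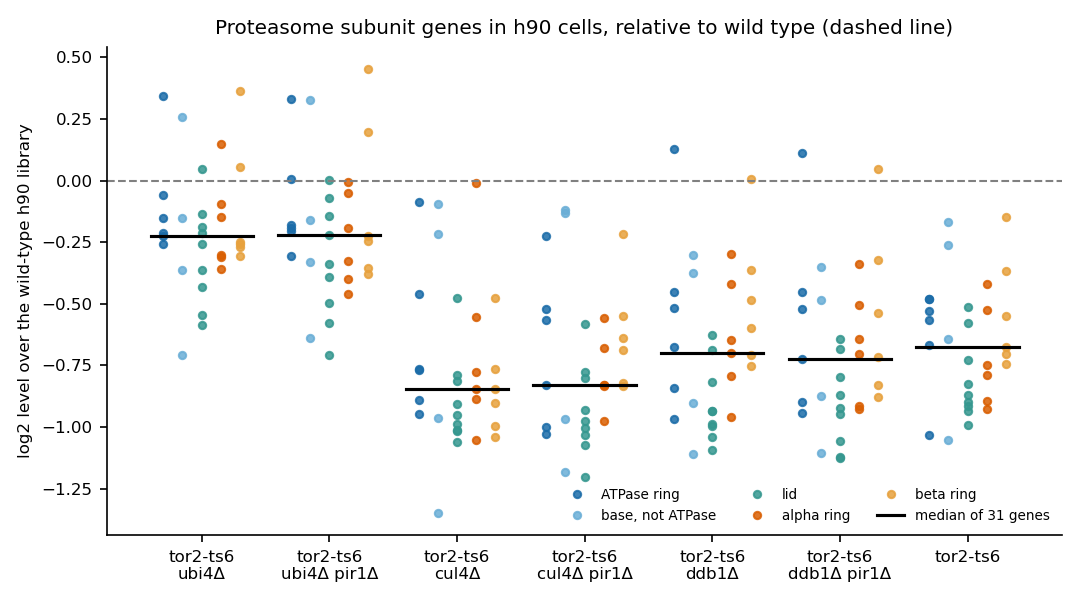
Log2 level of each of the 31 genes over the wild-type h90 library (vertical axis, dashed line at 0) in the 7 tor2-ts6 libraries (horizontal axis), coloured by role, with black bars at the medians. Both ubi4Δ libraries have medians of -0.23 and -0.22, the cul4Δ, ddb1Δ and tor2-ts6 libraries have medians between -0.85 and -0.67.

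Every member was higher in ubi4Δ tor2-ts6 cells than in tor2-ts6 alone, also under total scaling, whereas in cul4Δ and ddb1Δ the members' medians lay near those of all genes. The 3 comparisons share the tor2-ts6 library and have 1 library a group. In ubi4Δ all 31 members were above 0, with a median log2 ratio of 0.45 and a range of 0.11 to 0.83, whereas 50.19% of genes were above 0. The ATPase gene rpt1 had 334.00 CPM in ubi4Δ and 191.05 CPM in tor2-ts6, and rpn501 had 37.92 CPM in ubi4Δ and 23.58 CPM in tor2-ts6. The receptor gene rpn1301 moved least, with 109.10 CPM in ubi4Δ and 101.08 CPM in tor2-ts6. No member reached a log2 ratio of 1 in size, as 9.61% of genes did. In cul4Δ the median was -0.13 with 8 members above 0 (44.33% of genes), and in ddb1Δ it was -0.01 with 12 above 0 (45.59% of genes). Over all genes the medians were -0.065 in cul4Δ and -0.029 in ddb1Δ. No member reached 1 in size in either, against 15% and 7.43% of genes. The alpha 2 gene pre8 was the highest in cul4Δ, with 460.82 CPM in that library and 249.67 CPM in tor2-ts6, but 260.82 CPM in the cul4Δ pir1Δ library. The direction in cul4Δ and ddb1Δ depends on the scaling. Under total scaling 19 of 31 members were above 0 in each, against 62.01% of genes in cul4Δ and 52.87% in ddb1Δ. In the fit of all 8 libraries, the mean of the 3 deletions minus tor2-ts6 gave 0 members past the threshold in either direction with edgeR (3.81% of genes) and 0 with DESeq2. Of the members, 2 had an unadjusted p below 0.05 in edgeR (rpt1 and rpt6) and 1 in DESeq2. The ATPase gene rpt1 had an estimate of 0.38 ± 0.11 (SE, adjusted p = 0.121 with edgeR), and rpn10 had the smallest (-0.00 ± 0.10).

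The members stood lower in cul4Δ and ddb1Δ than in ubi4Δ, a contrast of 6 libraries that leaves tor2-ts6 alone and wild type out. With the pir1 deletion as a term, edgeR called 26 of 31 members as fallen at an adjusted p under 0.05, and no member had a positive estimate. Among all genes 21.2% fell and 29.6% rose. The members' median was -0.46, against 0.04 over all genes. The 3 largest falls were in 2 lid genes and 1 ATPase. The paralog gene rpn501 had 21.74 and 21.05 CPM in the cul4Δ libraries and 21.73 and 22.72 CPM in the ddb1Δ libraries, against 37.92 and 41.11 CPM in the ubi4Δ libraries. All 4 were below both ubi4Δ values, and the log2 difference was -0.80 ± 0.09 (SE, adjusted p = 0.00344 with edgeR). Its copy rpn502 fell by 0.40 ± 0.07 (adjusted p = 0.0104 with edgeR). The lid gene rpn12 had 125.86, 112.06, 110.39 and 108.09 CPM in the cul4Δ and ddb1Δ libraries, against 197.29 and 186.74 CPM in the ubi4Δ libraries. The groups did not overlap, and rpn12 fell by 0.69 ± 0.07 (adjusted p = 0.00324 with edgeR). The ATPase gene rpt3 had 192.02, 181.27, 206.51 and 198.34 CPM in the cul4Δ and ddb1Δ libraries, against 333.20 and 320.92 CPM in the ubi4Δ libraries, and fell by 0.69 ± 0.08 (adjusted p = 0.00352 with edgeR). By role, 9 of 9 lid genes, 5 of 6 alpha ring genes, 5 of 6 beta ring genes, 4 of 6 ATPases and 3 of 4 other base genes fell. Those that did not pass were rpt5 (-0.22), rpt6 (-0.31), pup3 (beta 3, -0.27), pre8 (-0.18) and rpn1301 (-0.09 ± 0.07, adjusted p = 0.342 with edgeR). The call of rpn1301 differs from that of its paralog rpn1302, which fell by 0.52 ± 0.06 (adjusted p = 0.00441 with edgeR). The difference between the 2 was not tested.

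**Figure D2:**
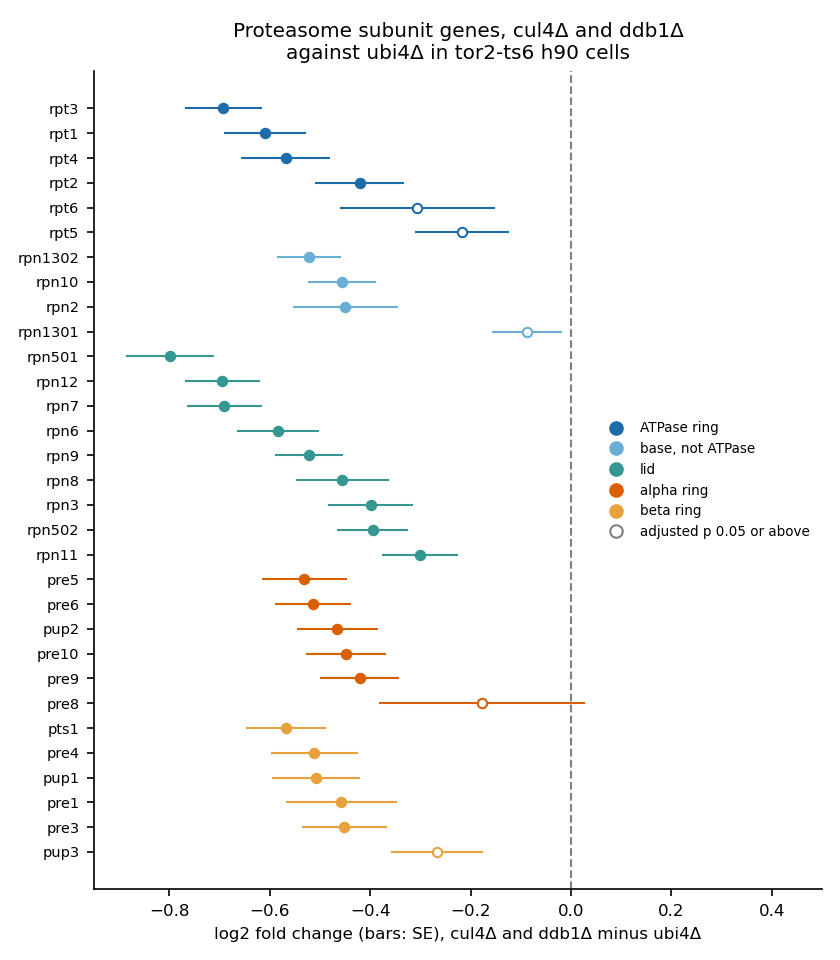
Log2 fold change of cul4Δ and ddb1Δ minus ubi4Δ in tor2-ts6 h90 cells (horizontal axis, bars are SE, 6 libraries) for each of the 31 genes (vertical axis), coloured by role. All points lie below 0, from -0.80 in rpn501 to -0.09 in rpn1301, and the 5 open points did not pass an adjusted p of 0.05.

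Related genes gave mixed counts in the same contrast. The 4 subunits outside the rule fell in 4 of 4 cases (median -0.38) and the CCT chaperonin in 8 of 8 (median -0.60). Of 139 ribosomal protein genes 60 fell and 0 rose. Of 14 ubiquitin shuttles, deubiquitinases and Cdc48 genes 7 fell and 1 rose, and of 15 genes of ubiquitin and its conjugation 5 fell and 2 rose. Of 4 assembly factors and activators of the proteasome 2 fell and 0 rose. Of 28 autophagy genes 3 fell and 2 rose. Of 12 chaperones 1 fell and 3 rose, and of 6 genes of the COP9 signalosome, which regulates cullin ligases, 1 fell and 2 rose. Across the other settings tried, between 22 members (without the ddb1Δ libraries) and 28 members (without the cul4Δ libraries) fell.

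With pir1 deleted in these tor2-ts6 strains no member passed the test, and the estimates were small. Over 3 pairs of libraries, edgeR and DESeq2 each called 0 of 31, with 0 at an unadjusted p under 0.05, against 0.426% of genes called by edgeR. In 1 of the 3 pairs iss10 was lost less fully, at 15.73 CPM in cul4Δ pir1Δ against 54.18 CPM in cul4Δ. Without that pair 0 of 31 members were called as well. The estimates had a median of -0.01 and ran from -0.28 ± 0.20 in pre8 (SE, adjusted p = 0.663 with edgeR) to 0.13 ± 0.08 in pts1 (adjusted p = 0.656 with edgeR), the catalytic beta 5 gene. The estimate nearest 0 was that of rpt2 (-0.00 ± 0.09). The single-library pairs outside tor2-ts6 also gave small values. Members had a median log2 ratio of -0.06 in GFP-Pir1-SD over GFP-Pir1 (7 above 0, against 52.92% of genes) and of 0.01 in GFP-Pir1-SA over GFP-Pir1 (18 above 0, against 55.65% of genes). Under total scaling 1 and 9 members were above 0 in these 2 pairs, against 36.07% and 38.42% of genes. In mat1Msmt0 cells in EMM the median of pir1Δ over wild type was -0.10, with 2 members above 0, rpn1301 and rpt6, against 51.62% of genes. Under total scaling 11 members were above 0 there, against 69.79% of genes. None of the 31 reached 1 in size in these 3 pairs, as 3.97%, 0.809% and 1.58% of genes did. In the authors' deposited table for pir1Δ mat1Msmt0 cells in YEA the members' median was -0.04 with 14 above 0, against 0.11 over all genes.

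Medium and temperature gave small differences of opposite sign. In pir1Δ mat1Msmt0 cells 30 of 31 members were above 0 in YEA over EMM (46.94% of genes), with a median log2 ratio of 0.24 (20 and 0.07 under total scaling), and pre3 was the highest at 0.51. In GFP-Pir1 cells, YEA at 30 °C over EMM at 18 °C gave a median of -0.15 with 8 members above 0 (48.45% of genes). The beta 7 gene pre4 was the lowest there, at -0.64, and rpn2, the scaffold of the base, the highest, at 0.72. Again none reached 1 in size, against 7.18% and 20.1% of genes. Medium and temperature cannot be told apart in the second pair, and strains and temperatures differ between the pairs.

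In the diploids, 1 member passed the test after 4 h of starvation, while most ribosomal protein and autophagy genes did. With 3 starved and 4 vegetative libraries and strain as a block, edgeR called 1 of 30 members as risen and 0 as fallen (0 falls at an unadjusted p under 0.05, and 0 with DESeq2), against 20.5% of genes that rose and 19.3% that fell. The median was 0.15, and over all genes 0.12. The member that rose was the receptor gene rpn1301, with 140.97 CPM in red1Δ, 231.35 in pir1Δ and 153.00 in wild type when starved, against 101.30 in red1Δ, 122.23 in pir1Δ and 134.29 and 140.10 CPM in wild type when vegetative. The lowest starved value lay just above the highest vegetative one, and the change was 0.54 ± 0.18 (SE, adjusted p = 0.0208 with edgeR). The ATPase gene rpt2 had the estimate nearest 0 (0.00 ± 0.32). In the same contrast 111 of 114 ribosomal protein genes fell (median -3.90) and 22 of 27 autophagy genes rose (median 1.20). At hours 1 to 3 of meiosis (9 libraries), set against starvation, rpn1301 rose again, by 0.60 ± 0.17 (adjusted p = 0.0183 with edgeR), with a lowest, median and highest value of 206.56, 254.91 and 351.17 CPM in these hours, which overlap the starved values. It was 1 of 30 members that rose, with 0 falls (0 at an unadjusted p under 0.05, and 0 with DESeq2), against 3.94% of genes that rose and 5.8% that fell. The alpha 5 gene pup2 had the estimate nearest 0 (0.01 ± 0.16). The call in starvation was lost without the pir1Δ libraries, and the call at hours 1 to 3 without the red1Δ or the wild-type ones and under total scaling.

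The members' median level was above the vegetative one at 2 h and 3 h of meiosis and below it at 7 h and 8 h in each strain. Levels are given as the median log2 level of the 30 members relative to the strain's vegetative mean. In red1Δ the medians were -0.09, 0.16, 0.21, 0.33, 0.37, 0.22, -0.04 and -0.22 at hours 1 to 8, and the highest hours were spread, with 9 members at 5 h, 7 at 6 h and 7 at 3 h. In pir1Δ they were 0.25, 0.44, 0.24, -0.00, -0.18, -0.35, -0.46 and -0.45, with 23 members highest at 2 h and 7 at 1 h. In wild type they were 0.21, 0.37, 0.41, 0.69, -0.31, -0.78, -0.69 and -0.65, with 22 members highest at 4 h. Most wild-type members thus stood above their vegetative level until 4 h (all 30 at 3 h) and below it from 5 h on (4 above at 7 h). The base scaffold gene rpn2 had 773.77, 1125.89, 1349.54, 1859.66, 684.08, 433.12, 429.58 and 473.82 CPM at hours 1 to 8 in wild type. The receptor gene rpn1302 had 131.10, 247.55, 416.26, 812.71, 235.84, 186.59, 174.08 and 175.58 CPM at the same hours. In both, the wild-type library at 4 h was the highest of the course. Each strain and hour has 1 library, so a single hour has no replicate check. Over all tested genes the same medians stayed between -0.18 and 0.14, but single genes moved further than this. From the lowest to the highest of hours 1 to 8, the median log2 range over all tested genes was 0.91 in red1Δ, 0.99 in pir1Δ and 1.81 in wild type. For the members it was 0.68, 0.95 and 1.63, so they moved no further than the typical gene. The hour of the peak depends on the scaling: by total counts the pir1Δ and wild-type medians were both highest at 2 h among these hours (0.54 and 0.78), the red1Δ median was highest at 4 h (0.27), and wild type had 0.49 at 4 h, -0.50 at 5 h and -1.04 at 8 h. The pir1Δ libraries are also of the other kind.

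**Figure D3:**
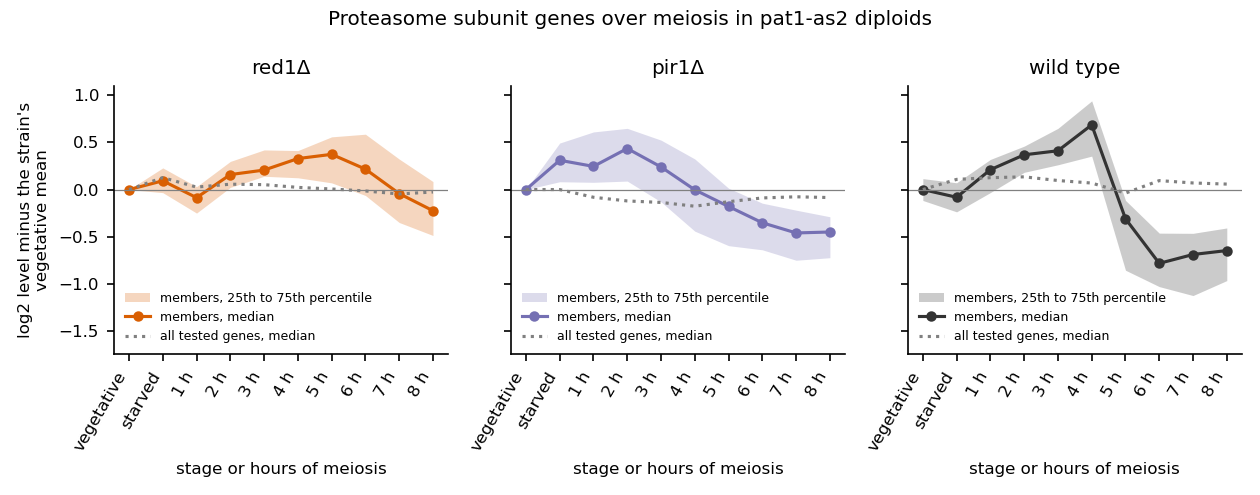
Median log2 level of the 30 members minus each strain's vegetative mean (vertical axis) through vegetative growth, starvation and hours 1 to 8 of meiosis (horizontal axis), with the 25th to 75th percentile over members as a band and the median over all tested genes dotted. Under TMM scaling the red1Δ line peaks at 5 h (0.37), the pir1Δ line at 2 h (0.44), and the wild-type line at 4 h (0.69) before it lies below 0 at 5 h (-0.31).

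At hours 4 to 6, set against hours 1 to 3, all alpha ring genes fell, and no lid gene passed under TMM scaling. Over 9 libraries each, with strain as a block, edgeR called 11 of 30 members as fallen and 1 as risen, against 21.6% of genes that fell and 22% that rose. All 6 alpha genes fell, with 3 of 5 ATPases, 1 of 4 other base genes and 1 of 6 beta genes, while 0 of 9 lid genes fell with edgeR. The median was -0.51 in the alpha ring, -0.45 in the ATPases and -0.18 in the lid, and roles were not tested against each other. Under total scaling 7 of 9 lid genes also fell. The alpha 6 gene pre5 had 82.65, 168.83 and 303.80 CPM as lowest, median and highest value at hours 4 to 6, and 202.02, 324.67 and 417.38 CPM at hours 1 to 3. The ranges overlapped, with the wild-type library at 4 h the highest of hours 4 to 6, and pre5 fell by 0.75 ± 0.19 (SE, adjusted p = 0.0027 with edgeR). The alpha 3 gene pre9, whose subunit takes part in closing the gate of the core in Saccharomyces cerevisiae, had 131.09, 184.24 and 364.56 CPM at hours 4 to 6, and 184.47, 417.11 and 636.60 CPM at hours 1 to 3. It fell by 0.70 ± 0.15 (adjusted p = 0.000743 with edgeR). The catalytic beta 5 gene pts1 fell by 0.69 ± 0.15 (adjusted p = 0.00066 with edgeR) and was the 1 beta gene to do so. The structural beta 4 gene pre1 was the 1 member that rose, by 0.32 ± 0.13 (adjusted p = 0.0499 with edgeR), with 157.01, 215.45 and 453.44 CPM at hours 4 to 6 and 123.88, 189.15 and 294.47 CPM at hours 1 to 3. This call was lost without the wild-type or the red1Δ libraries, without vegetative wild-type library 1 and under total scaling. The beta 3 gene pup3 had the estimate nearest 0 (-0.01 ± 0.21). Among other lists, 4 of 11 chaperones and 52 of 114 ribosomal protein genes fell, and 12 of 27 autophagy genes rose. The count of falls was 4 without the wild-type libraries, 4 without the pir1Δ libraries, 1 in wild type alone and 23 under total scaling, by which the genes' median was -0.29. Under total scaling 2282 of 5687 genes fell.

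Between hours 4 to 6 and hours 7 to 8 (6 libraries) all 30 estimates were below 0, with a median of -0.43 against 0.05 over all genes. At the adjusted threshold edgeR called 1 fall and 0 rises. In edgeR 24 members had an unadjusted p below 0.05 (0 of them rises), as did 1957 of 5687 genes in either direction. DESeq2 had 15 falls and 0 rises among members, against 588 falls and 422 rises among the 5687 genes. Under total scaling, by which the genes' median was -0.12, 24 of 30 members and 920 of 5687 genes fell. Of all genes 0.404% fell and 1.74% rose with edgeR. The member that fell was rpn1301, with 112.20, 123.36 and 136.96 CPM as lowest, median and highest value at hours 7 to 8, and 137.72, 169.11 and 244.69 CPM at hours 4 to 6. The ranges did not overlap, and it fell by 0.47 ± 0.13 (adjusted p = 0.0499 with edgeR), a call lost without the wild-type or the pir1Δ libraries and without vegetative wild-type library 1. Without the red1Δ libraries 4 members fell, and likewise without vegetative wild-type library 2. Its paralog rpn1302 had the lowest estimate, -0.89 ± 0.30 (adjusted p = 0.0629 with edgeR), and rpn502 the one nearest 0 (-0.09 ± 0.10). The share of reads that fall on overlapping genes and are dropped moved with the hours, from 16.5 to 19.8% at hours 1 to 3 in wild type, 26.8 to 29.8% at hours 4 to 6 and 28.5 to 30.4% at hours 7 to 8. The share of opposite-strand reads moved as well, in wild type from 20.5 to 24.1% at hours 1 to 3 to 29.5 to 31.4% at hours 7 to 8. In pir1Δ it was 17.7 to 20.5% and 22.2 to 23.0% at these hours. The part of both shares in these results was not tested. With stranded counts 12 members fell between hours 1 to 3 and hours 4 to 6, and 0 between hours 4 to 6 and hours 7 to 8 with edgeR (25 of 31 had an unadjusted p under 0.05). Of 6583 genes with stranded counts, 1425 fell in the first comparison, and 2159 had an unadjusted p under 0.05 in the second with edgeR.

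**Figure D4:**
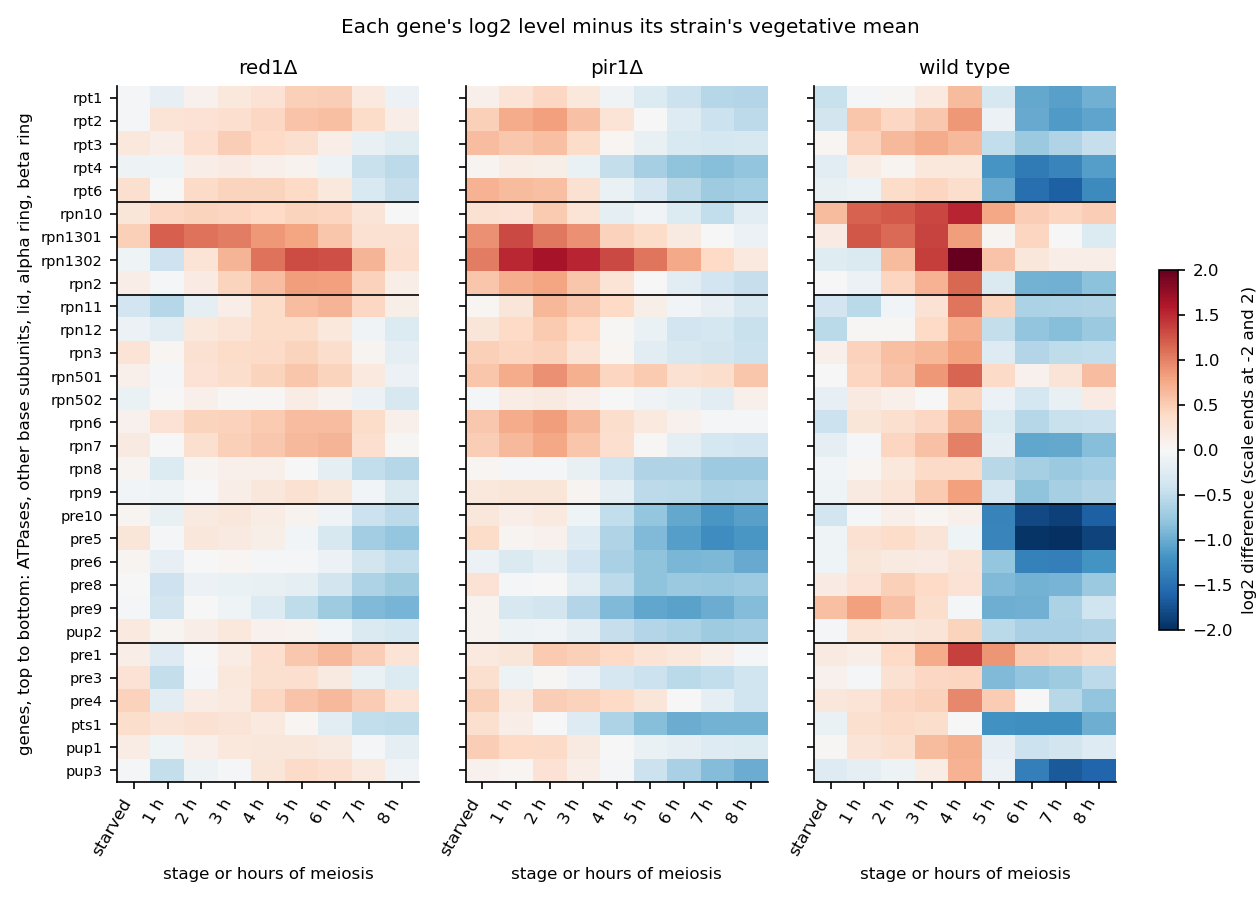
Log2 level of each of 30 members (rows, grouped by role) minus its strain's vegetative mean in each library (columns, starved and hours 1 to 8 of meiosis), with red above and blue below 0. Most rows stay closer to 0 in red1Δ, turn from red to blue between 3 h and 6 h in pir1Δ, and are red at 4 h and blue at 6 h in wild type. The wild-type row of rpn10 is raised throughout, and wild-type vegetative library 2 kept 11.2% of its rpn10 reads.

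The decline over the hours of meiosis was smaller in red1Δ than in wild type for several members. A slope over hours 1 to 8 was fitted within each strain (8 libraries each), a fit chosen after the hourly levels had been seen. In red1Δ 4 of 30 members had a negative slope past an adjusted p of 0.05 with edgeR, namely pre5, pre9, pts1 and rpn1301 (11.8% of genes did), with a median of -0.03 on the log2 scale per hour. In pir1Δ 22 did (16.9% of genes, median -0.15), and in wild type 25 did (27% of genes, median -0.20). The slope of red1Δ was above that of wild type in 7 members with edgeR, against 5.56% of genes, and the median difference was 0.17 per hour. The smaller movement in red1Δ was not particular to the members. Over all tested genes the median log2 range over these hours was 0.91 in red1Δ and 1.81 in wild type. The ATPase gene rpt2 had 357.35, 363.55, 375.86, 395.43, 440.87, 449.87, 383.28 and 325.30 CPM at hours 1 to 8 in red1Δ, and 561.32, 511.33, 554.37, 698.13, 353.84, 190.97, 173.87 and 184.50 CPM in wild type. The wild-type values at 6 to 8 h lay below all of red1Δ, and the slope was 0.00 ± 0.05 in red1Δ and -0.29 ± 0.05 in wild type, a difference of 0.30 ± 0.07 (SE, adjusted p = 0.00726 with edgeR). For pup3 the slope was 0.07 ± 0.07 in red1Δ and -0.28 ± 0.07 in wild type, a difference of 0.35 ± 0.10 (adjusted p = 0.0220 with edgeR). The alpha 6 gene pre5 declined in both strains, with -0.14 ± 0.05 per hour in red1Δ and -0.41 ± 0.05 in wild type (adjusted p of the difference = 0.0113 with edgeR). The slopes of pir1Δ and wild type differed in 0 of 30 members with edgeR (2 at an unadjusted p below 0.05), against 2.85% of genes. Across the 3 strains the slopes differed in 4 members with edgeR, pre5, pre6, pup3 and rpt2, against 13.4% of genes. Without hour 7 the first of these counts, of red1Δ against wild type, was 0, without hour 2, 3 or 6 it was 3, and without hour 4 it was 11. Without hour 2, 6 or 7 the count across the 3 strains was 0. The test of strain by phase over 5 phases passed for 0 of 30 members with edgeR (2 at an unadjusted p under 0.05), against 6.32% of genes, and for 1 with DESeq2.

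**Figure D5:**
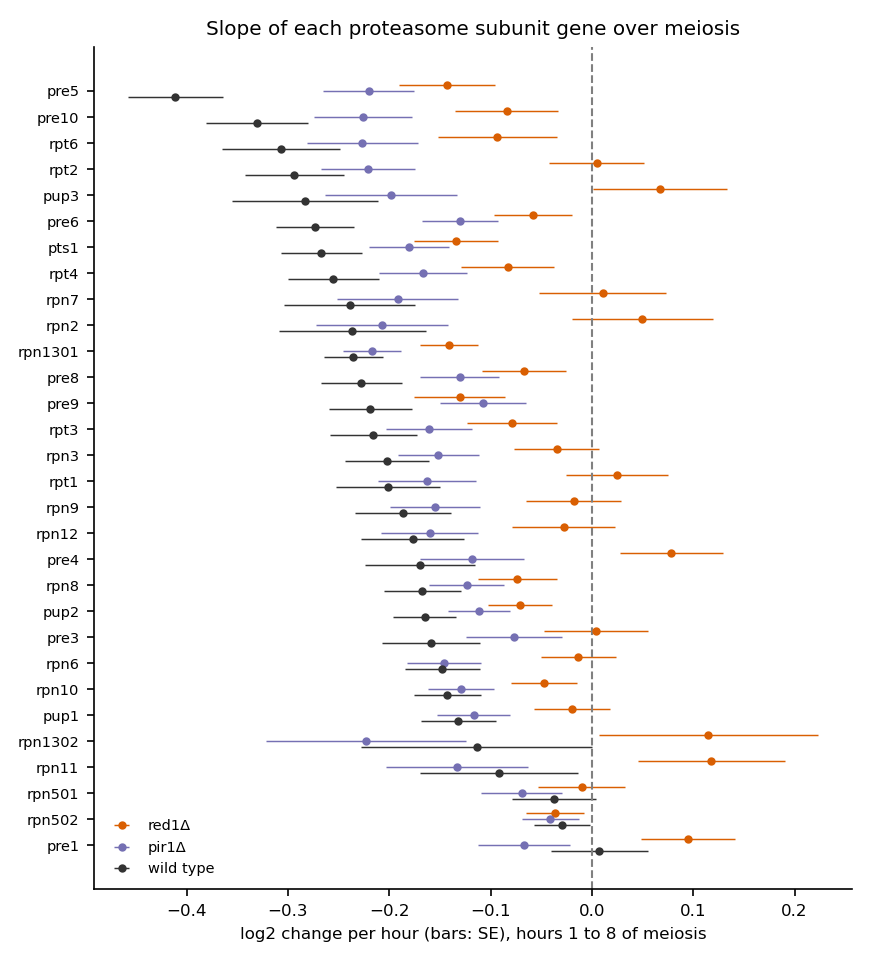
Slope of the log2 level over hours 1 to 8 of meiosis (horizontal axis, change per hour, bars are SE of the fit) for each of 30 members (vertical axis, ordered by the wild-type slope) in red1Δ, pir1Δ and wild type. The red1Δ slopes lie to the right of the wild-type ones in all genes except rpn502, and the wild-type slopes run from -0.41 in pre5 to 0.01 in pre1.

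Set against wild type over the whole course, 1 member stood far lower in red1Δ than the others. With time as a block, edgeR called 8 of 30 members as fallen and 0 as risen (0 rises at an unadjusted p under 0.05, and 0 with DESeq2), against 18.1% of genes that fell and 14.2% that rose. The alpha 2 gene pre8 had 70.75, 103.15 and 116.34 CPM as lowest, median and highest value in red1Δ, and 183.18, 364.57 and 490.21 CPM in wild type. Every red1Δ library was below every wild-type library, and the difference was -1.69 ± 0.13 (SE, adjusted p = 1.31e-09 with edgeR). With stranded counts it was -1.60. In the reference annotation the protein-coding gene wss2 on the other strand overlaps 39.2% of pre8. The next largest were pre1 (-0.50 ± 0.12, adjusted p = 0.00273 with edgeR) and the pair rpn501 (-0.42 ± 0.12, adjusted p = 0.00781 with edgeR) and rpn502 (-0.42 ± 0.08, adjusted p = 0.000417 with edgeR). Others that fell were pre4, rpn6, rpn8 and rpn1301, and rpn3 had the estimate nearest 0 (0.00 ± 0.12). By total counts the genes' median was 0.35, with 9 members that rose and 1 that fell, so the split of directions depends on the scaling, while pre8 was at -1.32. In vegetative cells alone, 29 of 30 members were lower in red1Δ than in wild-type library 1, with a median of -0.42 (-0.06 over all genes). Of all genes 45.40% were above 0 in this pair, which has 1 library each and so no replicate check.

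In pir1Δ 12 members fell and 1 rose over the course with edgeR, against 24.1% of genes that fell and 17.4% that rose. The lowest estimate, of rpn10, was -1.83 ± 0.18 (adjusted p = 5.04e-08 with edgeR), but -0.12 with stranded counts, under which it did not pass. With those counts rpn10 had 106.86, 137.03 and 179.71 CPM as lowest, median and highest value in pir1Δ, and 108.24, 154.31 and 220.20 CPM in wild type. The alpha 3 gene pre9 had 131.09, 167.69 and 290.33 CPM in pir1Δ, and 182.40, 352.94 and 636.60 CPM in wild type. The ranges overlapped, and pre9 fell by 0.92 ± 0.14 (adjusted p = 1.65e-05 with edgeR). In the only pair of 1 library kind, pir1Δ against wild-type vegetative library 2, pre9 was at 0.06, and wild-type vegetative libraries 1 and 2 differed by 0.89 in pre9. Within 1 kind the vegetative difference of pre9 was thus near 0, with 1 library each. With stranded counts over the course pre9 had 112.91, 139.45 and 244.05 CPM in pir1Δ, and 140.30, 249.38 and 477.74 CPM in wild type. The part of the library kind in the fall of pre9 was not tested. The pair rpn501 and rpn502 fell by 0.73 ± 0.12 and 0.62 ± 0.08 (adjusted p = 3.35e-05 and 3.13e-06 with edgeR), and stood at -0.56 and -0.44 in the pair of 1 kind. The lid gene rpn6 rose by 0.36 ± 0.13 (adjusted p = 0.032 with edgeR), but was at -0.26 in the pair of 1 kind and did not pass under total scaling. The gene pre10 (alpha 7) had the estimate nearest 0 (-0.01 ± 0.17). These 2 strains also differ in the kind of library, and within 1 kind only the vegetative pair can be compared. There pir1Δ was below wild-type vegetative library 2 in 28 of 30 members, with a median of -0.20 and a range of -0.56 to 0.06, while 55.161% of genes were above 0. With stranded counts over the course 8 members fell and 2 rose, and under total scaling 14 fell and 0 rose.

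The paralogs were followed through the remaining tests. For hours 4 to 6 against hours 1 to 3, rpn1301 fell by 0.63 ± 0.11 (SE, adjusted p = 0.000185 with edgeR), while rpn1302 had an estimate of 0.36 ± 0.26 that did not pass (adjusted p = 0.27 with edgeR). The difference between these 2 receptor genes was not tested. For rpn1302 the estimate was 0.24 ± 0.43 in starvation, 0.61 ± 0.38 at hours 1 to 3 against starvation, 0.13 ± 0.23 in red1Δ and -0.10 ± 0.23 in pir1Δ, and none of these passed. In red1Δ rpn1301 fell by 0.28 ± 0.11 (adjusted p = 0.0465 with edgeR), and in pir1Δ its estimate was -0.15 ± 0.11, which did not pass. For rpn501 and rpn502, no phase of the course passed in the 4 tests of successive phases. Their estimates there ran from -0.18 to 0.32 in rpn501 and from -0.12 to 0.21 in rpn502. In the h90 set no paralog passed for the 3 deletions against tor2-ts6 (-0.10 to 0.15) or for the loss of pir1 (-0.12 to 0.05).

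The members varied together in both sets. Over the 31 course libraries the median Pearson r of log2 CPM over 435 pairs of members was 0.64, and the median over pairs of all tested genes was 0.00. After phase means were subtracted it was 0.63, and over the 8 h90 libraries it was 0.90 (465 pairs). These values describe the libraries, which share depth, composition and, in the course, strain and hour. Pairs of the same role had a median r of 0.66 and pairs of different roles one of 0.64. The lid genes rpn9 (0.97), rpn12 (0.95) and rpn3 (0.94) lay closest to the mean of the other members over the course, and pre1 (0.41), pre8 (0.42) and rpn10 (0.47) farthest from it. The pair rpn501 and rpn502, which can share reads, had an r of 0.87, and rpn1301 and rpn1302 one of 0.43.

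Outside the rule, the gene whose course was most like the members' mean was ubp6, with a Pearson r of 0.96 over 31 libraries. It encodes a deubiquitinase that sits on the regulatory particle. In wild type ubp6 had 234.68, 324.59, 329.37, 345.09, 123.14, 93.84, 93.01 and 97.22 CPM at hours 1 to 8, with its highest value at 4 h. The next were jmj3 (0.91), gsa1 (0.91), mtg2 (0.91), blt1 (0.90), txl1 (0.90), ubc13 (0.89), iba57 (0.89), hri2 (0.89) and tgs1 (0.89). Of these, ubc13 encodes a ubiquitin-conjugating enzyme, txl1 a thioredoxin-like protein known to bind the proteasome, and gsa1 a glutathione synthetase.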

How the data were processed

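RNA was sequenced from 49 fission yeast samples with 1 of 2 kits, ScriptSeq v2 and Ultra II Directional, per the labels, which tie neither to a sample. The submitters' processing notes name Trimmomatic, a trimmer, and STAR, an aligner. Genome build: not given in the sources used here. For each library the authors deposited raw counts of reads by gene, 1 column ignoring strand and 1 for each strand. In 2 further tables the authors deposited, per the file headers, a normalised log2 fold change and a q-value. The columns value1 and value2 of each, 4 in all, were not used.

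Of the 2 strand columns, the one with more reads was used where it held at least 4 times the other in every library (h90, GFP-Pir1 and mat1Msmt0 sets), and the column ignoring strand elsewhere (course). Summary entries without a gene name were dropped: reads on several genes made up 13.2 to 30.4% of course libraries. Feature IDs were named from the RefSeq gene table, which 6845 of 7015 (97.6%) matched. Tests ran on all genes with edgeR 4.0.16 in R 4.3.3 (TMM, filterByExpr, quasi-likelihood F test, Benjamini-Hochberg, threshold 0.05), checked on simulated data. DESeq2 1.42.0, other scalings and filters, and leaving out libraries were alternatives. Single libraries were compared by log2 ratios of CPM with a prior count of 2, over genes reaching 50 reads in 1 of the pair. Reads are PCR products without molecular identifiers, so depth understates the spread.

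The members, lists and tests were chosen with earlier results of these data known. In each test the 3 largest rises and falls that passed, the smallest change and the paralog pairs are named, and outside the members the 10 genes with a symbol and the highest correlation with the members' mean. Other genes were named after their values were seen.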

Additional observations from a re-analysis of the deposited data

Results flagged for a closer look

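The slope over hours 1 to 8 of meiosis differed between red1Δ, pir1Δ and wild type in 4 members by edgeR's test of the difference, with adjusted p of 0.0221 in pre5, 0.0282 in pre6, 0.0373 in pup3 and 0.0143 in rpt2. The share of all genes called by this test was 13.4%, about that of the members (4 of 30). These 4 calls were lost without hour 2, 6 or 7, each of which leaves 0 members past the threshold.

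Reads on the strand opposite to a member, which no main comparison of the h90 set used, were above the wild-type level in all 7 tor2-ts6 h90 libraries for 15 of 31 members. For 2 of them, pre8 and rpt1, the lowest of the 7 libraries also had at least 50 such reads and at least 2 times the wild-type level. For pre8 the lowest of the 7 was 52.26 opposite-strand reads per 1e6 gene reads, against 19.13 in wild type, and wss2 is annotated on that strand. For rpt1 the lowest of the 7 was 7.58 opposite-strand reads per 1e6 gene reads, against 0.71 in wild type. With 1 wild-type library there is no replicate check. The share of all genes that meet either rule is not given here, so these counts do not set the members apart from other genes.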

How the results depend on the processing

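Of 285 alternative values of counts that answer a comparison, 222 stayed within 1.5 times the main count, 16 became larger and 47 smaller. The 222 include counts of 0 that stayed 0, so they do not measure how stable the counts above 0 were. Scaled by total counts, 3 members rose when starved, 0 rose at hours 1 to 3, 0 rose and 23 fell at hours 4 to 6, 24 fell at hours 7 to 8, 9 rose and 1 fell in red1Δ, and 0 rose in pir1Δ. In the single-library pairs 5 members were then above 0 in tor2-ts6 (0 past 1 in size), 19 in cul4Δ (1 past 1), 19 in ddb1Δ, 1 with GFP-Pir1-SD, 9 with GFP-Pir1-SA, 3 with GFP-Pir1 in YEA and 11 in pir1Δ mat1Msmt0 cells. Of all genes, 62.01% were above 0 in cul4Δ, 52.87% in ddb1Δ and 38.42% in GFP-Pir1-SA under this scaling. The side of 0 that held most members thus changed in cul4Δ, ddb1Δ and GFP-Pir1-SA. In red1Δ most calls became rises instead of falls. This does not mean that most members changed sign. With the column without strand 0 members of tor2-ts6 were past 1.
Without strain as a block 0 members rose when starved, 0 rose at hours 1 to 3, 0 rose and 6 fell at hours 4 to 6, and 0 fell at hours 7 to 8. In wild type alone these counts were 0, 0, 0, 1 and 0. Without a filter on low counts 0 members rose at hours 4 to 6 and 0 fell at hours 7 to 8. At hours 7 to 8 also 0 fell with DESeq2's size factors, 0 with the stranded column and 15 with the DESeq2 test. In red1Δ 5 fell with DESeq2's size factors, 5 with the stranded column, 4 without time as a block and 4 without vegetative and starved cells. In pir1Δ 2 rose with the stranded column and 0 without time as a block. DESeq2 called 1 member for strain by phase. Leaving out libraries or times gave 0 to 1 rises when starved, 0 to 1 at hours 1 to 3, 0 to 2 rises and 4 to 13 falls at hours 4 to 6, 0 to 4 falls at hours 7 to 8, 5 to 9 falls in red1Δ, 0 to 1 rises in pir1Δ and 0 to 1 for strain by phase. The cause of these differences was not tested. In the h90 set rpt6 had the fewest reads of the members, 51 to 100, and stood at 4.36 to 7.85 CPM. In the GFP-Pir1 set it had 165 to 385 reads and stood at 6.92 to 9.69 CPM. In the course it stood at 105.83 to 444.15 CPM. The cause of its low haploid levels was not tested. With 1 library for each strain and hour the spread within an hour is unknown. The labels give the groups no shared replicate numbers to pair by. Libraries were matched only through the blocks used, which were strain, time and, for the loss of pir1, the deletion (0 members called without it).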
